A study of Mus musculus with 2 samples.

Results

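The genes described are 10 that encode blood group antigens and other surface proteins of the human or mouse red cell: Rhd, Rhag, Kel, Xk, Aqp1, Ermap, Bcam, Icam4, Cd24a and Cd47. They were chosen by symbol in the GENCODE M21 annotation, and all 10 were present among 55536 annotated genes, with 41 annotated transcripts between them. The samples were 2 libraries of polyadenylated RNA from livers of B6NCrl mouse embryos at 12.5 days, with male and female embryos pooled and no treatment or genetic change named. Replicate 1 was a pool of 120 embryos and replicate 2 a pool of 88, and 10 ng of RNA from each, with synthetic spike-in RNAs added, went into its library. The labels number the pools as biological replicates of 1 group and give both the same donor identifier. No condition was compared, so the values are levels, orders and ratios, with an SD over 2 libraries that covers only the spread between these pools.

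Blood group antigens are inherited differences in proteins or sugars on the red cell surface. In the red cell membrane, the Rh protein and the Rh-associated glycoprotein form a complex that carries ammonium and is tied to band 3 and the spectrin skeleton through ankyrin, with CD47 and ICAM-4 attached to it. Kell, an enzyme that cleaves endothelin precursors, is bound to XK, a membrane protein of the lipid scramblase family, by a disulfide bond. The embryonic liver is a site where red cells of the definitive lineage are made, alongside the hepatoblasts, endothelium and mesenchyme of the organ itself.

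Expected counts are reads shared out among genes and transcripts by the authors' quantification and need not be whole. Over all entries, spike-ins included, they summed to 38293265 in replicate 1 and 35399872 in replicate 2. Over annotated genes the sums were 37190042 and 34291772. TPM, the abundance unit of the deposited tables, is a level already divided by effective transcript length and scaled to the library total. For the transcripts of the 10 genes, effective length was the length less 99 bases. All 9 red cell markers (among them globins, Slc4a1, Alas2, Klf1 and Epor) were at 100 TPM or more. Their summed TPM was 240130 and 244604. All 6 hepatoblast markers reached 10 TPM, with sums of 10226 and 9977, while the 4 lymphoid markers summed to 0.08 and 0.21 TPM. Endothelial, mesenchymal and mesothelial markers summed to 150 to 167, 294 to 312 and 30.9 to 32.6 TPM, and macrophage and megakaryocyte markers to 169 to 171 and 863 to 981 TPM. Granulocyte markers summed to 469 TPM in replicate 1 and 543 TPM in replicate 2, and bile duct markers to 17.55 and 14.37 TPM. In a whole organ, the number of cells of a type and the RNA per cell cannot be told apart, and which cells the transcripts below came from was not tested.

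Every one of the 10 genes was detected in both libraries, over a range from 9.39 TPM for Bcam to 701 TPM for Cd24a. At 100 TPM or more were 7 of the 10 (Cd24a, Rhd, Ermap, Cd47, Kel, Icam4 and Rhag), against 5.4% of 21951 protein-coding genes, and 9 of the 10 reached 10 TPM, against 32.1% of protein-coding genes. The median of the 10 was 214 ± 3.09 TPM (SD, n = 2), and that of all protein-coding genes was 1.85 ± 0.0141 TPM. Ranked by mean TPM, the order was Cd24a, Rhd, Ermap, Cd47, Kel, Icam4, Rhag, Xk, Aqp1 and Bcam. A gap separated the 7 abundant genes from the other 3, since Rhag, the lowest of the 7, was at 182 and 183 TPM and Xk, the next, at 27.4 and 29.1 TPM. In each of the 9 neighbouring pairs, the lower library of the higher gene lay above the higher library of the lower gene. The narrowest gap was between Ermap, whose lower library was at 275 TPM, and Cd47, whose higher library was at 273 TPM.

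**Figure D1:**
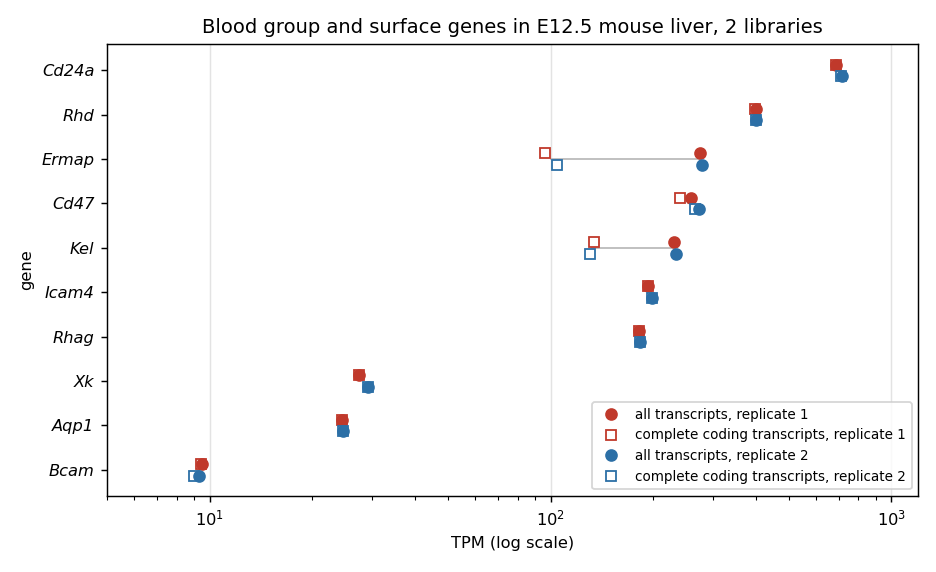
Level of each of the 10 genes in TPM (log axis) in replicate 1 (red) and replicate 2 (blue), over all annotated transcripts (filled circles) and over complete protein-coding transcripts only (open squares). The libraries lie close together for every gene, and the squares fall well to the left of the circles for Ermap (100 against 277 TPM on average) and Kel (133 against 232 TPM).

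Rhd is the mouse Rh gene, the counterpart of the human pair RHD and RHCE, and its protein carries the Rh antigens in humans. It lies on mm10 chromosome 4 from 134864536 to 134896172 on the plus strand (ENSMUSG00000028825.7). Its level was 399.9 TPM in replicate 1 and 401 TPM in replicate 2, from 18462 and 17128 counts, an SD of 0.247% of the mean. A single transcript of 10 exons and 418 codons, Rhd-201, held 99.7% ± 0.185 of the TPM (SD, n = 2), and the other annotated form, an intron-retaining fragment, held the rest.

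Rhag encodes the Rh-associated glycoprotein, without which the Rh protein does not reach the red cell surface. The gene spans chromosome 17 from 40811126 to 40840754 on the plus strand (ENSMUSG00000023926.8). It stood at 182 TPM in replicate 1 and 183 TPM in replicate 2, below Rhd in both. The ratio of Rhag to Rhd was 0.454 in replicate 1 and 0.456 in replicate 2, a mean of 0.455 ± 0.00156 (SD, n = 2), so there were 2.20 ± 0.00753 Rhd transcripts for each Rhag transcript by TPM. Rhag-201, with 10 exons and 438 codons, held 95.5% ± 0.253 of Rhag TPM. Another complete coding form, Rhag-203, held 4.12% in replicate 1 and 4.45% in replicate 2, on 364 and 368 counts with a posterior SD of 62.1 and 56.1 counts. The posterior SD is the authors' estimate of the uncertainty in sharing reads among overlapping transcripts. Rhag-203 has 396 codons and differs from Rhag-201 by lacking a coding exon of 74 bases at chr17:40836417-40836490, plus strand, and by an earlier 3′ end. That exon is shown because its presence separates the 2 forms, and it was present in 95.7% of the TPM that spanned it.
Rhag exon of 74 bases: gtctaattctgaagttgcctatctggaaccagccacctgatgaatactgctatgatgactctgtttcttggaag

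Kel encodes the Kell glycoprotein, a zinc-dependent endopeptidase. It lies on chromosome 6 from 41686330 to 41704339 on the minus strand (ENSMUSG00000029866.13), and its level was 231 TPM in replicate 1, with 234 TPM in replicate 2. The complete coding transcript, Kel-201, with 19 exons and 713 codons, held 58.4% of that TPM in replicate 1 and 55.9% in replicate 2, yet 91.7% and 90.9% of the counts. The remaining TPM belonged mostly to 3 short models: Kel-202, a processed transcript of 422 bases with a share of 19.1% ± 1.06, Kel-203, an intron-retaining model of 384 bases with 13.3% ± 1.71, and Kel-205, an incomplete coding model of 322 bases with 8.84% ± 0.963 (SD, n = 2). All 3 begin at least 15380 bases into a gene of 18010 bases. TPM divides a count by effective length, in which the 99 bases taken off weigh most on short models. The 447 and 454 counts of Kel-202 thus became 42.4 and 46.5 TPM. By contrast, the 10680 and 9619 counts of Kel-201 became 135 and 131 TPM.

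Xk, on chromosome X from 9272756 to 9313250 on the plus strand (ENSMUSG00000015342.6), encodes the partner of Kell and has 1 annotated transcript of 446 codons. Its level was 27.4 TPM in replicate 1 and 29.1 TPM in replicate 2, far below Kel in both. By gene TPM, Kel exceeded Xk 8.40-fold in replicate 1 and 8.05-fold in replicate 2, with a mean ratio of 8.23 ± 0.249 (SD, n = 2). Counting only complete coding transcripts, a comparison added after the values were seen, the ratio was 4.90 in replicate 1 and 4.50 in replicate 2, with a mean of 4.70 ± 0.285.

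Ermap encodes an erythroid membrane protein of the butyrophilin type that carries the Scianna antigens. It lies on chromosome 4 from 119175457 to 119190011 on the minus strand (ENSMUSG00000028644.16), and its gene level was 275 TPM in replicate 1 and 278 TPM in replicate 2. Only 1 of its 9 annotated transcripts is a complete coding form. This was Ermap-206, with 13 exons and 592 codons, which held 35.0% and 37.6% of the TPM but 72.1% and 73.6% of the counts. The next was Ermap-207, a model annotated as a target of nonsense-mediated decay, the pathway that removes messages with an early stop codon, at 18.3% and 18.4% of the TPM. It contains an extra exon of 146 bases at chr4:119188176-119188321 that 7 other Ermap models skip. Ermap-208, also annotated as a decay target, has a 159-base version of that exon and held 2.13% and 1.26% of the TPM. Incomplete coding models Ermap-202, Ermap-209 and Ermap-204 held 12.2% ± 0.187, 12.2% ± 0.496 and 11.0% ± 1.70 (SD, n = 2). Those 3 and Ermap-207 end at least 10235 bases before the 3′ end of the gene, which spans 14555 bases. Summed over complete coding transcripts only, Ermap was at 96.3 TPM in replicate 1 and 105 TPM in replicate 2, lower than the gene total by 2.85-fold and 2.66-fold.

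Icam4 encodes the Landsteiner-Wiener glycoprotein, an adhesion molecule that binds integrins on leukocytes, platelets and other cells. It is a compact gene of 1223 bases on chromosome 9 from 21029373 to 21030595 on the plus strand (ENSMUSG00000001014.6). Its level was 193 TPM in replicate 1 and 199 TPM in replicate 2, which the quantification divided between a pair of annotated coding forms. Icam4-201, with 3 exons, was at 105 and 109.7 TPM, or 54.2% and 55.2% of the gene. Icam4-202, which keeps the second intron, was at 88.6 and 89.0 TPM, or 45.8% and 44.8%. The split rested on 2989 and 2894 counts for Icam4-201 and 2687 and 2500 counts for Icam4-202, with posterior SDs of 76.5 to 77.5 counts, so Icam4-201 exceeded Icam4-202 in both libraries by more than that uncertainty.

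The second intron of Icam4 is 139 bases long (chr9:21030243-21030381). Both forms are annotated with 262 codons and share all coding sequence up to that intron, so they differ only in the last 110 coding bases, which Icam4-202 reads from the intron and Icam4-201 from the third exon. A secreted form of mouse ICAM-4 without the membrane segment has been described. Whether Icam4-202 makes it is not something these tables show, nor whether reads in the intron came from mature transcripts, unspliced RNA or DNA, so the share of Icam4-202 is that of the annotated model only. The alternative coding ends are shown because they distinguish the forms, with the first 2 bases of the intron, its splice donor, in capitals. They lie at chr9:21030243-21030352 and chr9:21030382-21030491.
Icam4-202 coding end, in the second intron: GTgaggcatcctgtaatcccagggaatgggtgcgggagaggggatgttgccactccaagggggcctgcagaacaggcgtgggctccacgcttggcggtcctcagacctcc
Icam4-201 coding end, in the third exon: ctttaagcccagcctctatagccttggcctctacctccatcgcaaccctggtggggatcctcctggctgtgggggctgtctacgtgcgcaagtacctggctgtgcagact

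**Figure D2:**
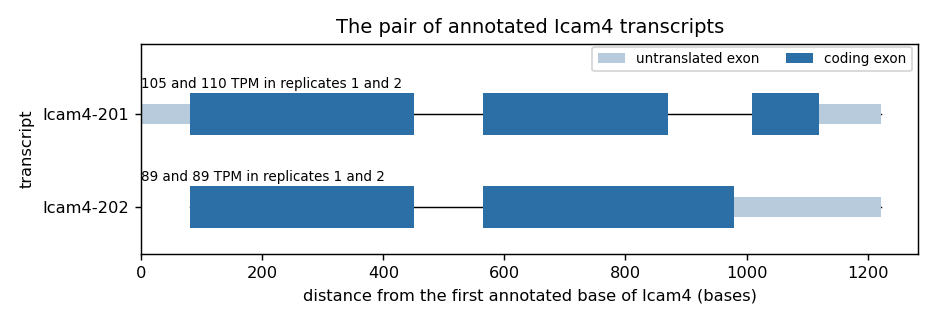
Annotated exons of the pair of Icam4 transcripts against distance in bases from the first annotated base of the gene, drawn to scale, with coding parts tall and untranslated parts low. Icam4-201 splices out the last intron and stood at 105 and 109.7 TPM, and Icam4-202 reads into it and stood at 88.6 and 89.0 TPM.

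Cd47 encodes a surface protein of nearly all cells that binds SIRPα on macrophages and restrains engulfment, and that also binds thrombospondin. It spans chromosome 16 from 49800533 to 49915010 on the plus strand (ENSMUSG00000055447.19). Its level was 258 TPM in replicate 1 and 273 TPM in replicate 2. Unlike the Rh genes no transcript dominated, and 7 of 10 annotated forms shared nearly all of its TPM. Cd47-205 and Cd47-201 were at 26.0% ± 0.835 and 25.7% ± 0.636, Cd47-202 at 15.4% ± 2.19, and Cd47-207 at 10.1% ± 0.0875 (SD, n = 2). Cd47-203, Cd47-209 and Cd47-210, the last a non-coding model, were at 9.24% ± 0.772, 8.67% ± 0.506 and 4.92% ± 2.73. The libraries disagreed most on Cd47-210, at 6.85% in replicate 1 and 2.99% in replicate 2, with posterior SDs of 29.4% and 46.8% of its counts. Cd47-201 alone extends to the distal 3′ end at position 49915010 and held 60.9% and 59.8% of the counts. The 8 forms that end between 49911046 and 49911091 held 74.3% ± 0.636 of the TPM.

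Near its 3′ end Cd47 has short coding exons that lengthen or alter the cytoplasmic tail, and these were used in part of the transcripts. Forms with none of them held 55.9% of the TPM in replicate 1 and 53.5% in replicate 2. These shares include the non-coding Cd47-210, at 6.85% in replicate 1 and 2.99% in replicate 2. Forms with both the exon of 25 bases and that of 33 bases held 25.4% and 26.6%, the form with only the 25-base exon 8.70% and 9.79%, and forms with a 29-base version, which uses a splice site 4 bases further on, 10.1% and 10.2%. A separate coding exon of 63 bases upstream was included in 48.7% and 52.0% of the TPM. Sharing reads among such similar forms was imprecise: the posterior SD of Cd47-207 was 348 of 994 counts in replicate 1 and 357 of 986 in replicate 2, and that of Cd47-205 was 308 of 2603 and 292 of 2671. The exons are shown because they define the forms, with the 4 added bases of the longer version in capitals. They lie at chr16:49869018-49869080, chr16:49908054-49908078, chr16:49908054-49908082 and chr16:49908703-49908735, all on the plus strand.
Cd47 exon of 63 bases: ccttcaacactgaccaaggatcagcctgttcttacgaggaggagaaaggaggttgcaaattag
Cd47 exon of 25 bases: aaagctgtagaggaaccccttaacg
Cd47 exon of 29 bases: aaagctgtagaggaaccccttaacgGTAT
Cd47 exon of 33 bases: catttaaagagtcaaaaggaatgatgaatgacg

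**Figure D3:**
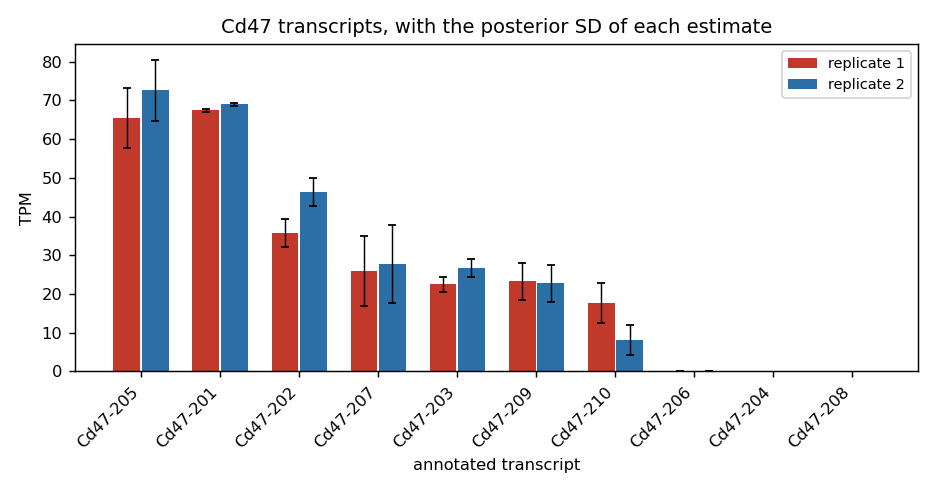
TPM of each annotated Cd47 transcript in replicate 1 (red) and replicate 2 (blue), with bars from 0 and whiskers of 1 posterior SD converted from counts to TPM. Cd47-205 and Cd47-201 lead at 65.5 to 72.6 TPM, the whiskers are widest for Cd47-207 and Cd47-205, and transcripts with under 1 count have no whisker.

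Cd24a encodes heat-stable antigen, a small lipid-anchored, heavily glycosylated protein found on immature blood cells, on mouse red cells and on epithelial progenitors. Located on chromosome 10 from 43578284 to 43584265 on the plus strand (ENSMUSG00000047139.9), it was the highest of the 10 genes, at 687 TPM in replicate 1 and 714 TPM in replicate 2. Only 112 protein-coding genes were higher. Its short coding sequence of 76 codons lies in Cd24a-201, which held 99.7% of the TPM in each library.

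Aqp1 encodes the water channel that carries the Colton antigens, and is found in endothelium and other epithelia as well as in red cells. It lies on chromosome 6 from 55336432 to 55348555 on the plus strand (ENSMUSG00000004655.5), has 1 annotated transcript of 269 codons, and was at 24.4 TPM in replicate 1 and 24.6 TPM in replicate 2. Bcam encodes the Lutheran glycoprotein, a receptor for laminin chains that hold the alpha-5 subunit, which is made by endothelial and epithelial cells. It lies on chromosome 7 from 19756131 to 19771016 on the minus strand (ENSMUSG00000002980.14) and was the lowest of the 10, at 9.50 TPM in replicate 1 and 9.27 TPM in replicate 2 on 720 and 645 counts. Bcam-201, with 622 codons, held 99.1% and 97.0% of its TPM. Cd24a exceeded Bcam 72.4-fold and 77.0-fold.

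Across the 8 genes with more than 1 annotated transcript, the leading transcript held at least 90% of the TPM in 4 (Rhd, Rhag, Bcam and Cd24a). Among 6709 genes at 10 TPM or more with several transcripts, 25.7% had so dominant a form, and with Bcam left out, which is under 10 TPM, the count here was 3 of 7. Leading shares in the other 4 were 25.96% in Cd47, 36.3% in Ermap, 54.7% in Icam4 and 57.1% in Kel. Summing only complete coding transcripts lowered the level by over 1.5-fold in both libraries for Ermap and Kel, 2 of the 9 genes at 10 TPM or more, a share near the 24.3% of 7057 protein-coding genes at 10 TPM or more. It also changed the order. Cd47, Icam4, Rhag, Kel and Ermap then followed Rhd, at 253, 196, 182, 133 and 100 TPM on average, and each neighbouring pair was still apart in both libraries.

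**Figure D4:**
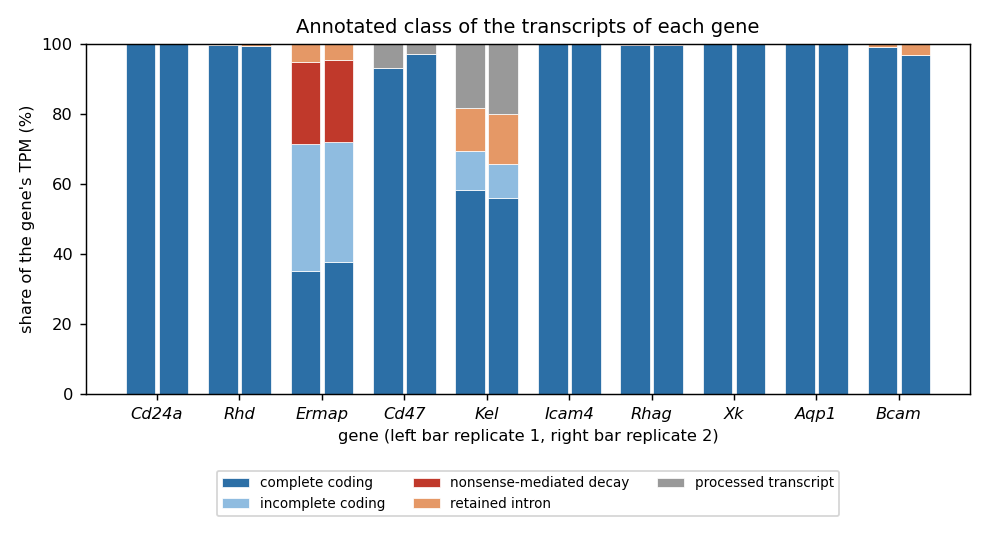
Share of each gene's TPM (%) by the annotated class of its transcripts, with replicate 1 as the left and replicate 2 as the right bar of each pair. Ermap and Kel are the genes with large shares outside complete coding transcripts, which held 35.0% and 37.6% of Ermap and 58.4% and 55.9% of Kel.

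Each gene was next set beside its relatives, in lists drawn from general knowledge. Genes and lists were chosen with earlier results of these data known, so a lead within a family is a description only. In the Rh and ammonium channel family, Rhbg, an ammonium channel of epithelia, was at 13.4 TPM in replicate 1 and 12.1 TPM in replicate 2, so Rhag exceeded it 14.4 ± 1.12-fold, and Rhcg was at 0.02 and 0.03 TPM. In the neprilysin family Kel exceeded the next gene, Ece1, an endothelin-converting enzyme at 14.9 and 15.4 TPM, 15.3 ± 0.213-fold. Mmel1 was at 1.40 and 2.05 TPM, and the 4 others (Mme, Ece2, Ecel1, Phex) were at 0.02 to 0.44 TPM in single libraries. Among 8 XK family genes, Xk led, Xkr8 and Xkr5 followed at 3.19 ± 0.184 and 2.77 ± 0.0141 TPM, and Xkr6, Xkr4, Xkrx, Xkr7 and Xkr9 were under 1 TPM.

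Ermap led the butyrophilin family by a wide margin. Btnl10 was at 7.94 and 9.08 TPM, Btn1a1 at 1.58 and 2.05 TPM, Btnl9 at 1.36 and 1.70 TPM, and Btn2a2, Btnl2, Btnl1, Btnl4 and Btnl6 were under 1 TPM. Icam4 exceeded Icam2, an adhesion molecule of endothelium and platelets at 19.4 and 19.0 TPM, 10.2 ± 0.334-fold, and exceeded its neighbour Icam1 23.7 ± 0.505-fold, while Icam5 was at 0.35 and 0.38 TPM. Margins were narrow for the other pair. Aqp1 exceeded Aqp3, a water and glycerol channel also listed among the other blood group genes below, 1.30-fold and 1.41-fold. Aqp11 and Aqp9 followed at 10.4 ± 0.368 and 8.55 ± 0.127 TPM. Aqp8 and Aqp7 were at 2.11 ± 0.0778 and 1.30 ± 0.297 TPM, and Aqp5, Aqp2, Aqp6, Mip, Aqp4 and Aqp12 were under 1 TPM. Bcam exceeded its relative Alcam only 1.36-fold in replicate 1 and 1.18-fold in replicate 2, and Mcam was at 5.26 and 5.08 TPM.

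**Figure D5:**
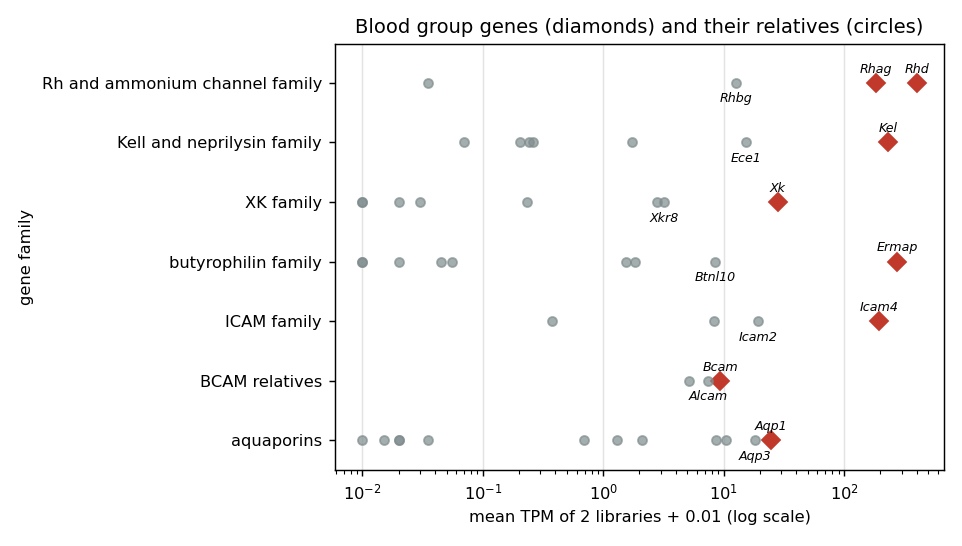
Mean TPM of 2 libraries plus 0.01 (log axis) for the genes of 7 families. Red diamonds are the genes described here and grey circles their relatives, with the highest relative named. Aqp3, drawn as a relative, is also in the list of other blood group genes. The red diamonds are the rightmost points in every family, by a wide gap in 5 of them and narrowly for Bcam and Aqp1.

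Of 33 other genes that determine human blood groups or are their mouse counterparts, 19 were at 10 TPM or more, 7 were between 1 and 10 TPM and 7 were under 1 TPM, with a median of 19.7 ± 0.149 TPM. Of all protein-coding genes, 32.1% were at 10 TPM or more and 54.5% at 1 TPM or more. Among the highest were Bsg (basigin, Ok) at 860 ± 23.5 TPM, Slc4a1 (band 3, Diego) at 790 ± 33.2 TPM, Smim1 (Vel) at 376 ± 11.2 TPM and Slc29a1 (a nucleoside transporter) at 221 ± 5.04 TPM, then Abcg2, Gypc, Abcb6, Cd59a and Cr1l at 174 to 60.2 TPM. Cd59a and Cr1l encode regulators of complement, and all those named were listed as counterparts of human blood group genes. Of the enzymes of carbohydrate antigens in the list, Fut1, Fut2, Abo and A4galt, which build the H, secretor, AB and P1PK sugars, were at 0.13 TPM or less in either library. B3galnt1 (globoside) was at 4.27 TPM in both and Gcnt2 (I antigen) at 1.26 and 1.24 TPM, and these were named after their values were seen. No count of Abo was recorded in either, which allows up to 3 counts per library. C4b, Cd55b and Sema7a were also under 1 TPM. Reads of Cd55 with Cd55b and of Cd59a with Cd59b may be shared between related copies, so those values are uncertain.

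The skeleton partners of the Rh and band 3 complexes were all well represented. All 6 genes of the ankyrin complex list were at 10 TPM or more, against 32.1% of protein-coding genes. Among them were Slc4a1 as above, Epb42 (protein 4.2) at 146 ± 4.48 TPM, Sptb (a spectrin) at 74.6 ± 6.44 TPM and Ank1 (ankyrin) at 51.7 ± 1.74 TPM. All 6 genes of the junctional complex list also passed, from Dmtn at 174 ± 3.18 TPM, through Epb41, Gypc, Add1 and Add2, down to Mpp1 at 66.6 ± 1.94 TPM. By TPM, Slc4a1 exceeded Rhag 4.22-fold in replicate 1 and 4.44-fold in replicate 2.

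Of 15 genes for ligands and receptors of these surface proteins, 8 were at 10 TPM or more, against 32.1% of protein-coding genes. Itgb1 led at 109 ± 0.332 TPM, followed by Itga2b at 71.3 ± 3.78, Itga4 at 31.9 ± 1.40, Itgb3 at 29.1 ± 2.05, Itgav at 19.7 ± 1.11 and Itgb2 at 11.5 ± 0.297 TPM, all integrin subunits of receptors that bind ICAM-4. For Cd47, the receptor gene Sirpa was at 17.3 and 18.9 TPM, so Cd47 exceeded it 14.7 ± 0.300-fold, and the ligand gene Thbs1 was at 65.9 and 57.9 TPM. Under 1 TPM were Edn3 and Edn1, whose products Kell-type enzymes process, and Selp and Siglecg, whose products bind CD24. Vps13a, whose product binds XK, was at 8.72 ± 0.46 TPM.

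The pools gave nearly the same levels. After TMM scaling (trimmed mean of M values, a factor that aligns most genes), the log2 ratio of replicate 2 to replicate 1 ran from -0.04 for Bcam to 0.10 for Ermap. Of the 10 genes, 8 were slightly higher and 2, Kel and Bcam, slightly lower in replicate 2, and none passed 2-fold, against 2.35% of 17343 genes that did so with an exact 95% binomial interval of their counts excluding the scaled split. For Xk, Ermap, Cd24a and Cd47 the interval excluded 0, as in Ermap at 0.07 to 0.13, and for the others it did not. These intervals cover counting error only, and the reads of 2 libraries compare those libraries. The share of all genes whose interval excluded 0 was not computed. Among 8495 genes with a mean of 500 counts or more, the median absolute log2 ratio was 0.0558 and its 95th percentile 0.196. Over the 10 genes the median absolute log2 ratio was 0.0424. When the libraries were aligned on the spike-ins instead, all 10 genes were lower in replicate 2, at -0.16 to -0.03, together with a median over all genes of -0.12, so the direction depended on the scaling.

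The older annotation, GENCODE M4, holds fewer transcripts for 4 of the genes: 1 in place of 3 for Rhag, 1 in place of 2 for Icam4, 1 in place of 3 for Cd24a and 2 in place of 10 for Cd47. No gene of the 10 differed by over 1.5-fold in TPM between annotations, against 5.51% of 13235 shared genes. Over shared genes, the median log2 ratio of M21 to M4 was -0.042 in replicate 1 and -0.043 in replicate 2. A slightly lower TPM under M21 was therefore general. Read assignment did change for a pair of the 10 genes. Icam4, whose intron-retaining form is not in M4, had 1065 and 1024 more counts under M21, or 23.1% and 23.4%, and was the only gene of the 10 with a higher TPM under M21 (193 against 181 in replicate 1 and 199 against 186 in replicate 2). The M21 model of Icam4-201 is also longer, at 971 against 907 bases. Cd47 gained 3311 and 3096 counts, or 21.6% and 20.8%, while its TPM was slightly lower under M21 in both libraries. Under M4 the short form Cd47-202 held 75.8% of Cd47 TPM, against 15.4% under M21. Its model also differs, at 867 bases in M4 and 1175 bases in M21. With M4 the TPM of Rhag and Icam4 overlapped, at 185 and 186 for Rhag and 181 and 186 for Icam4, so their order differed by annotation.

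Promoter sequences from RefSeq (GRCm38.p6), spanning 250 bases before to 50 after the annotated start, were matched by symbol for 9 of the 10 genes, with 2 entries for Cd47 and none for Cd24a. They were searched on both strands for the word AGATAA, its form AGATAG, and the forms of both that open with T, namely TGATAA as well as TGATAG, all recognised by erythroid GATA factors, and for the word CCNCNCCC, recognised by CACCC-binding factors such as KLF1. A GATA word was found in 5 of the 9 (Rhd, Rhag, Kel, Ermap and Icam4), and in 29.8% of 32817 promoters. The CACCC word was found in 5 (Rhd, Xk, Aqp1, Bcam and Icam4), and in 49.5% of promoters. Xk had 13 matches to it, 10 of them overlapping in a run of G. No GATA match overlapped a CACCC match in these promoters. The 5 promoters with a GATA word were 40.7% to 54.3% GC and the others 62.7% to 78.0%. Split by GC after the values were seen, 38.3% of promoters under 60% GC and 9.34% of those at 60% GC or more held a GATA word.

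The GATA words in these promoters began within 67 bases upstream of the RefSeq start: at base -43 in Rhd and Icam4, -31 in Rhag, -67 in Ermap, and -56 and -19 in Kel. The match of Icam4 falls within the first exon as M21 annotates it, and the second of Kel reaches the first base of its M21 exon. The 60 bases before the first annotated exon are shown for the 4 genes with a match there, with the GATA word or its reverse complement in capitals, each read along the strand of the gene. They are at chr4:134864476-134864535 (plus strand) for Rhd, chr17:40811066-40811125 (plus) for Rhag, chr6:41704340-41704399 (minus) for Kel and chr4:119190012-119190071 (minus) for Ermap. A match of letters is a description and not a measured binding site.
Rhd: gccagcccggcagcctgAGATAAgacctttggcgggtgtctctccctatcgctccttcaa
Rhag: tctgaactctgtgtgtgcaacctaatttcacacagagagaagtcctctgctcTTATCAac
Kel: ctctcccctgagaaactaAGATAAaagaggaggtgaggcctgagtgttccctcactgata
Ermap: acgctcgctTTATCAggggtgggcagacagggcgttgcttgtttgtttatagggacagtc

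Other annotated genes overlap 4 of the 10. Gm47079, antisense to Icam4, was at 0.96 and 1.03 TPM, and Gm37527, on the strand of Kel, at 2.82 and 2.95 TPM. H2al1m within Xk was at 1.54 and 1.97 TPM, and Gm26600 and Gm45114 at Bcam were at 0.02 to 0.03 TPM. The use of strand in counting is not given in the sources used here, so reads of Icam4 and of its antisense partner may not be told apart, though the partner held 106 and 105 counts against 5676 and 5393 for Icam4.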

How the data were processed

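Polyadenylated RNA of 2 liver pools, 1 group, was analysed. The labels name mirVana for extraction, SMARTer Ultra Low for cDNA and Nextera for tagmentation. Expected counts and TPM were deposited by the authors per gene and transcript, with posterior mean TPM and, as a score, the posterior SD of the counts; effective lengths were also deposited. The deposited notes name mm10 with GENCODE M21 and M4. Which aligner and quantifier were used is not given in the sources used here.

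M21 was used unless M4 is named. Spike-ins, 4.99% and 5.40% of TPM, stayed out of library sizes. Replicates were scaled with TMM in edgeR 4.0.16 for genes whose mean count was 10 or more (prior count 0.5, counts rounded for the interval). A gene differed between annotations where (TPM + 1) passed 1.5-fold in both libraries, among genes at 1 TPM or more. Alternatives were DESeq2 1.42.0 size factors, other scalings, filters and pseudocounts, posterior mean TPM, rescaled TPM, M4 and each library alone. Complete coding transcripts are protein-coding models not marked incomplete. Transcripts with starts or ends within 50 bases were grouped. The ratio script was tested on simulated data.

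Members and lists were chosen with earlier results of these data known. Named were all members, their families, the 10 highest and the under 1 TPM genes of the blood group list, partners at 10 TPM or more or under 1 TPM, overlapping genes and transcripts at 10% or more of a member; Vps13a, Rhag-203 and other lower transcripts were added after their values were seen. A few genes selected this way are not reported. No p-value is given, since there is 1 group.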

Additional observations from a re-analysis of the deposited data

How the results depend on the processing

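The median of the 10 genes, 214 TPM, was 209.9 with posterior mean TPM, 226 after rescaling to annotated genes and 157 over complete coding transcripts, an alternative chosen after seeing the data. The ratio of Kel to Xk was 4.70 over complete coding transcripts in place of 8.23, and stayed between 8.05 and 8.40 with each library alone. With M4, 1 neighbouring pair of the order overlapped in place of 0, and the ratio of Rhag to Rhd was 0.447. Posterior mean TPM moved both ratios by less than the SD between libraries. So did M4 for Kel to Xk and complete coding transcripts for Rhag to Rhd. Rescaling cannot change a ratio within a library. A single library of a pair always lies within the SD of their mean, so these settings could not move the ratios further. The count of genes at 100 TPM or more was 7 of 10 under all alternatives. Over complete coding transcripts it included Ermap only by a mean of 100.5 TPM, with 96.3 in replicate 1 and 105 in replicate 2. The count of other blood group genes at 10 TPM or more was 19 or 20, and the count with a dominant transcript was 4 or 5 under M21. Under M4, where Rhag, Icam4 and Cd24a have 1 transcript each and their share is fixed, only Rhd and Bcam of the 5 genes with several had one. No gene of the 10 was called different between libraries or annotations under any alternative, while calls over all genes between libraries were 754 of 27808 without a count filter and 18 of 12047 at a mean of 100 counts, against 407 of 17343. The ranking was the same in each library alone, but the check for overlap needs both. No paired analysis was possible because there is 1 group. Gene totals rested on 645 to 38469 counts, while the posterior SD of Cd47-210 reached 46.8% of its count.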
